A study of Homo sapiens with 2 samples.

Results

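The genes examined here were the cyclins, the cyclin-dependent kinases (CDKs) and the CDC genes of HT29 cells, an established human colon cancer line, compared between cells that received an siRNA against *REG4* (siREG4) and cells that received a control siRNA (siControl). They were chosen by name. Every gene counted whose symbol starts with CCN and a further letter, with CDK, or with CDC and a digit, except *CDC25A* and the *CDC42* genes, which the choice left out. This gave 84 genes, read by 87 probe sets, of 14812 named genes on the array. Of the 84 genes, 79 are protein-coding and 5 are antisense RNAs or pseudogenes.

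Total RNA from transfected cells was hybridized to Human Gene 2.0 ST arrays, with 1 array per group and so no replicates. Both groups were HT29 cells transfected with siRNA, and the siRNA dose, the harvest time and which of the study's *REG4* siRNAs was used are not stated. The treatment label of the siREG4 array gives GATA6 as the target of the siRNA. Its title and its source name give REG4 instead, and the title was followed. No probe set was named *REG4* (0 probe sets), so the knockdown itself was not analysed here, and *GATA6* differed by 0.07. Each probe set has been centred on its pair of arrays in the deposited table, so that the siControl value is the siREG4 value with the sign turned. The values therefore hold differences between the arrays and no signal levels, and whether a gene is expressed cannot be read from them. For the same reason the colon identity of the cells could not be checked against its markers. Of the 6 measured colon epithelial markers, *KRT20* was at 0.54 and the others ran from -0.26 (*CDX2*) to 0.00 (*KRT18*). Below, a difference is the siREG4 value minus the siControl value, on a log scale taken to have base 2, and "past 1.4-fold" means a difference beyond 0.485 in either direction. With 1 array per group there is no test, no SD and no p-value for any difference given here. As a gauge of noise, the 84 keratin-associated protein genes, which belong to hair and are assumed to be off in this line, had an SD of 0.09 across genes and ran from -0.22 to 0.30. That gauge was chosen with earlier results of these data known. It rests on genes assumed to be off, so it does not measure variation between cultures or the noise of expressed genes. A difference outside its range is therefore not shown to exceed such variation.

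Cyclins are regulatory subunits that switch on their partner CDKs, and the waves of cyclin A, B and E levels drive the order of events in the division cycle. The D cyclins with CDK4 and CDK6, and then the E cyclins with CDK2, act in G1 and at the entry into S phase, where they inactivate the retinoblastoma protein and release E2F factors. Cyclin A acts in S and G2 phases, and cyclin B with CDK1 in mitosis. A separate branch of the family is known mainly for work in transcription, though the division between the branches is not strict. Cyclins C, H, K, L and T, with CDK7 to CDK9, CDK11 to CDK13 and CDK19, act on RNA polymerase II, on the Mediator complex or on splicing. CDC is a name given to yeast mutants that stop in the division cycle, and the human genes that carry it range from replication licensing to protein folding.

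Across all 84 genes, 50 were lower, 32 were higher and 2 (*CDC20B* and *CDKL4*) were at exactly 0 in the siREG4 array. The lower genes made up 59.5% of the members, against 48.7% of all named genes. The median difference was -0.03, against a median of 0.0 over all named genes. Past 1.4-fold, 6 genes (7.14%) were lower, against 1.67% of all named genes, and 1 gene (1.19%) was higher, against 1.51%. The 6 lower genes were *CCNA2*, *CCNF*, *CDK1*, *CDC7*, *CDC23* and *CDC6*, and the higher gene was *CDK19*. Of the 84 genes, 17 lay below the range of the keratin-associated genes, these 6 among them, 62 lay inside it and 5 lay above it. The share below was 20.2%, against 9.20% of all named genes, and the share above was 5.95%, close to the 4.79% of all named genes. The largest differences thus belonged to a minority of the family.

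**Figure D1:**
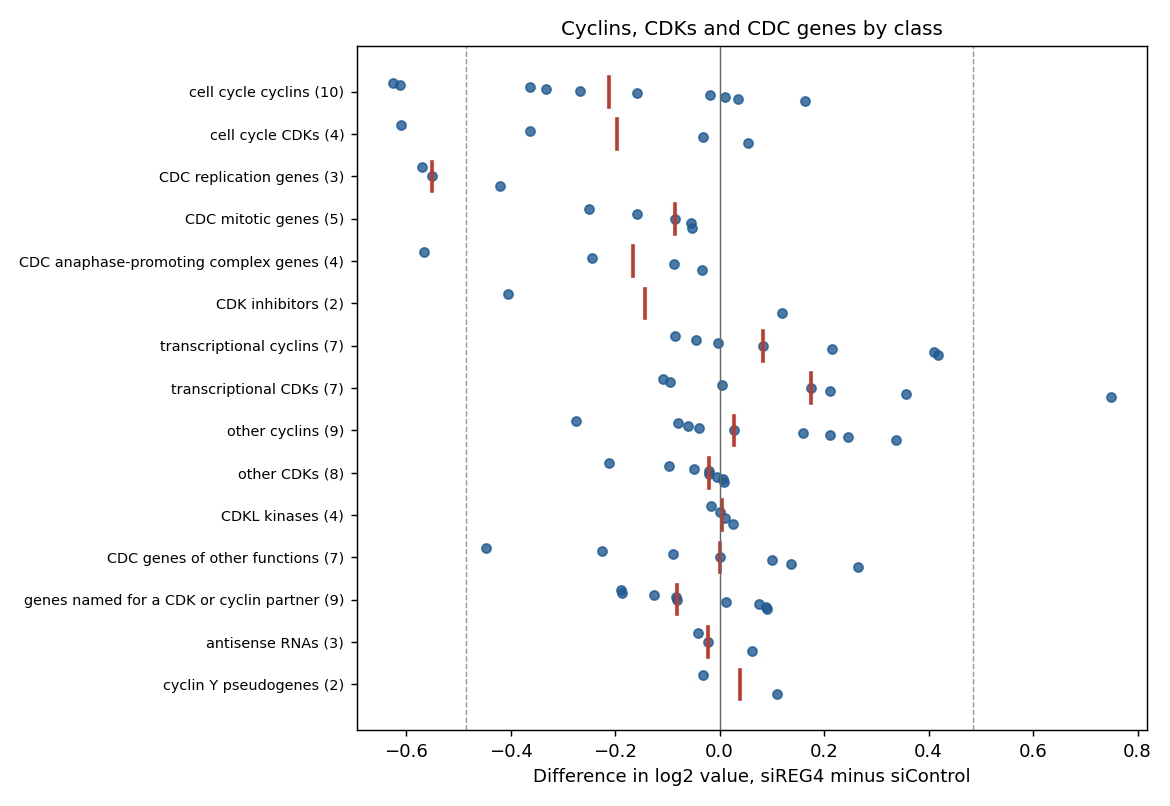
Difference in log2 value between the siREG4 and siControl arrays (x axis) for the 84 genes, grouped by class (y axis, with the number of measured genes). Each point is 1 gene, red bars are class medians and dashed lines mark 1.4-fold. The replication genes have the lowest median (-0.55) and the transcriptional CDKs the highest (0.17).

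The cyclins and CDKs of the division cycle were compared with those that act in transcription. Of the 14 measured cell cycle members, 10 were lower, with a median of -0.21, and 3 were lower past 1.4-fold. Of the 14 transcriptional members, 5 were lower and 9 higher, with a median of 0.13, and 1 was higher past 1.4-fold. The medians differed by -0.34 (cell cycle minus transcriptional). No cell cycle member was higher and no transcriptional member was lower past 1.4-fold (0 genes each). The highest cell cycle member was *CCND3* at 0.16 and the lowest transcriptional member was *CDK12* at -0.11, so the classes overlapped between these values.

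Among the cell cycle members, *CCNA2*, which encodes the cyclin A of dividing somatic cells, had the lowest value, -0.31 in siREG4 and 0.31 in siControl. Its difference of -0.63 is 1.54-fold lower and ranked 98th from the bottom of the 14812 genes. *CCNF*, which encodes the F-box protein cyclin F, a ubiquitin ligase subunit that binds no CDK, was at -0.31 in siREG4 and 0.31 in siControl, and was 1.53-fold lower (-0.61). *CDK1*, the kinase of mitotic entry, was at -0.30 in siREG4 and 0.30 in siControl, also 1.53-fold lower (-0.61). These 3 genes lay close together, within the SD of the keratin-associated genes. The next lowest were *CCNB1* (cyclin B1, -0.36), *CDK6* (-0.36), *CCNE2* (-0.33) and *CCNE1* (-0.27), all below the range of the keratin-associated genes and short of 1.4-fold. *CCNB2* was at -0.16 and *CCND3* at 0.16. The others lay between these values. They were *CDK2* (-0.03), *CCNB3* (-0.02), a cyclin best known from meiosis, *CCND1* (0.01), *CCND2* (0.04) and *CDK4* (0.05).

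The transcriptional member with the largest difference was *CDK19*, a kinase of the Mediator complex, at 0.37 in siREG4 and -0.37 in siControl. It was 1.68-fold higher (0.75) and ranked 65th from the top of all named genes. *CCNC*, which encodes cyclin C, the partner of CDK19 and of its paralog CDK8, was at 0.21 in siREG4 and -0.21 in siControl, a difference of 0.42. *CDK8* itself differed by 0.00. *CCNL2* (0.41) and *CCNL1* (0.22) encode cyclins found with splicing factors, and *CDK7* (0.36) the kinase of the general factor TFIIH. *CDK13* was at 0.21, *CDK9*, the kinase that releases paused polymerase, at 0.17 and *CCNT2*, one of its cyclins, at 0.08. The remaining 5 lay between -0.11 and 0.00: *CCNK* (-0.00), *CCNT1* (-0.04), *CCNH* (-0.09), *CDK11A* (-0.09) and *CDK12*. *CDK11A* has a near-identical copy, *CDK11B*, which was not analysed here, and its probe set may read both.

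**Figure D2:**
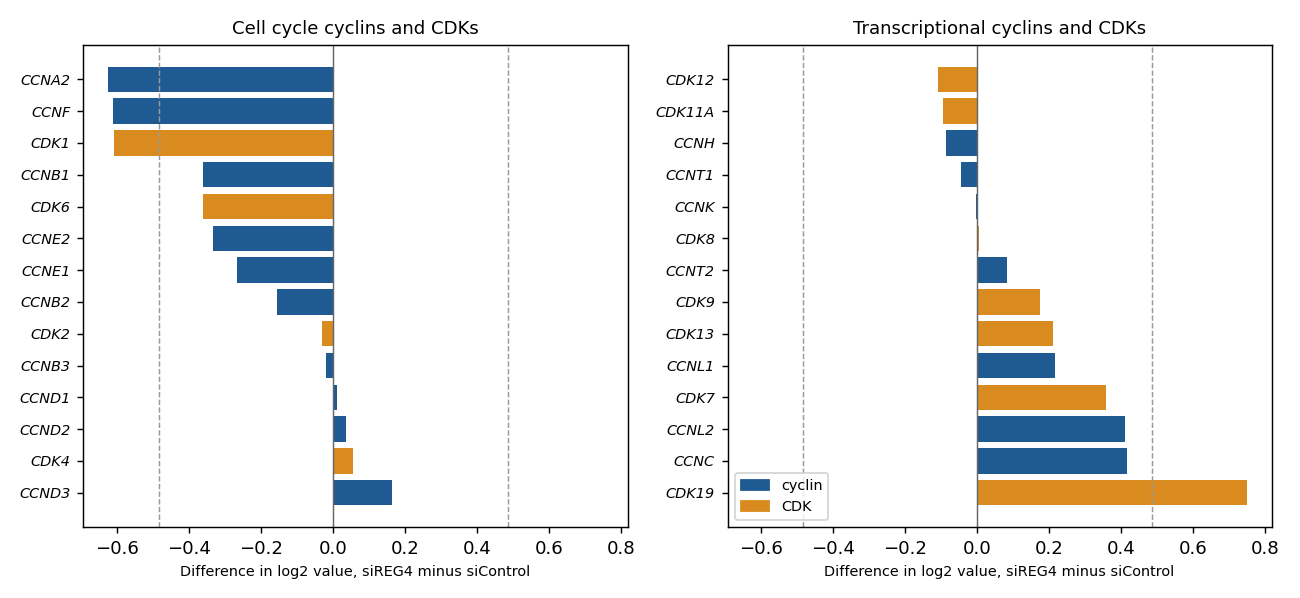
Difference in log2 value (x axis, siREG4 minus siControl, 1 array each) for the 14 cell cycle members (left) and the 14 transcriptional members (right), with cyclins in blue and CDKs in orange. Dashed lines mark 1.4-fold. *CCNA2*, *CCNF* and *CDK1* pass the lower line and *CDK19* the upper line.

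Partners were then set side by side, since a cyclin and its CDK act as 1 enzyme. Cyclin A2 and CDK1 had nearly equal differences (-0.63 and -0.61), whereas CDK2, the other partner of cyclin A2, was at -0.03. CDK2 was also above its G1 partners, with cyclins E1 and E2 at -0.27 and -0.33. In the mitotic pair, CDK1 lay lower than cyclin B1 by 0.25 and lower than cyclin B2 by 0.45. The D cyclins lay near CDK4 (0.05), from 0.01 for *CCND1* to 0.16 for *CCND3*, and all 3 lay above *CDK6* by 0.37 to 0.53. In the transcriptional branch, *CDK7* was at 0.36 and its cyclin *CCNH* at -0.09, while *CCNL2* lay above *CDK11A* by 0.50. No pair joined 2 members that were both past 1.4-fold except *CCNA2* with *CDK1*.

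**Figure D3:**
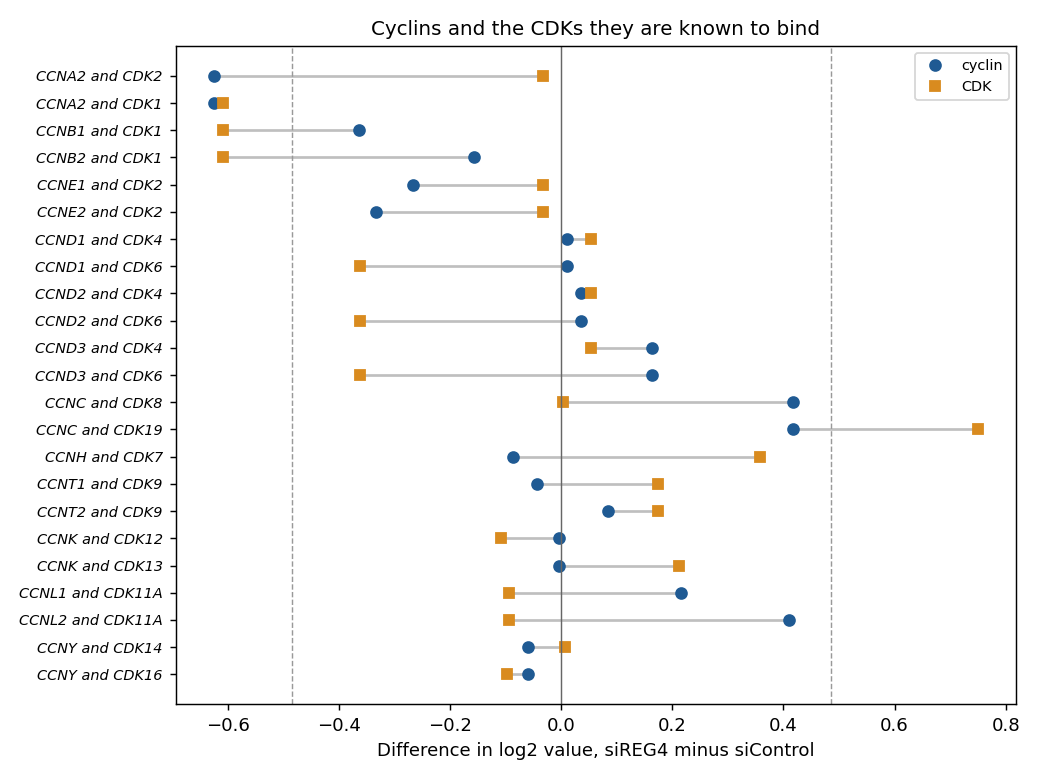
Difference in log2 value (x axis, siREG4 minus siControl) of each cyclin (blue circle) and of a CDK it is known to bind (orange square), 1 pair per line. Dashed lines mark 1.4-fold. Both members of the *CCNA2* and *CDK1* pair lie past the lower line, and the *CCNC* and *CDK19* pair lies highest.

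The members were next ordered by a phase in which their proteins are known to act, with the CDC genes of replication and mitosis included. Some act in more than the phase assigned to them. *CDC6*, which licenses origins ahead of S phase, was counted in S, and the medians depend on that choice. Of the 7 measured G1 members, 3 were lower and 4 higher, with a median of 0.01 and 0 past 1.4-fold. All 5 measured S phase members were lower, with a median of -0.55, and 3 were lower past 1.4-fold. All 8 measured G2/M members were lower, with a median of -0.20, and 2 were lower past 1.4-fold. The G1 median lay above that of the 13 S and G2/M members by 0.37, and by 0.24 when means replaced medians. Within G1, *CCND1*, *CCND2*, *CDK4* and *CCND3* lay from 0.01 to 0.16, and *CCNE1*, *CCNE2* and *CDK6* from -0.36 to -0.27. The array averages over all cells, so fewer cells in a phase and less of a transcript per cell cannot be told apart.

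In S phase, *CDC7*, the kinase that fires replication origins, was at -0.28 in siREG4 and 0.28 in siControl, and was 1.48-fold lower (-0.57). *CDC6*, which loads the replicative helicase onto origins, was at -0.28 in siREG4 and 0.28 in siControl, 1.46-fold lower (-0.55). *CDC45*, a component of the active helicase, was at -0.42 and fell short of 1.4-fold. With *CCNA2*, these genes of origin licensing and firing were the lowest of the S phase members, and *CDK2* (-0.03) was the exception. In G2/M, below *CCNF* and *CDK1*, came *CCNB1* and then *CDC25C* (-0.25) and *CDC25B* (-0.16), phosphatases that activate CDK1. *CDC20* (-0.05), the activator of the anaphase-promoting complex, lay inside the range of the keratin-associated genes, as did *CDC25B*, *CCNB2* and *CCNB3*.

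**Figure D4:**
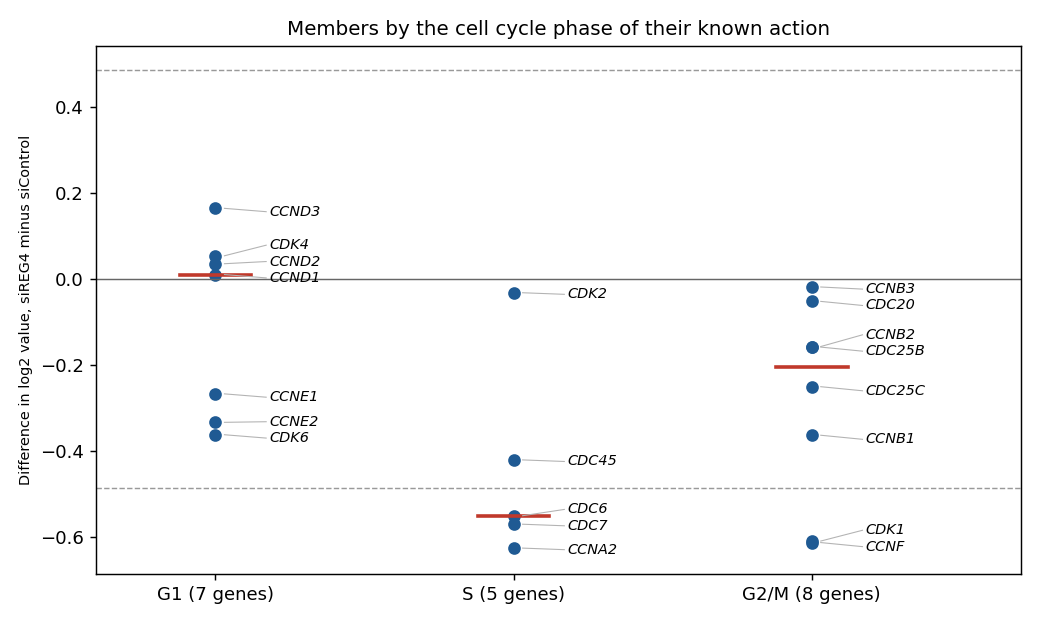
Difference in log2 value (y axis, siREG4 minus siControl) of the members assigned to G1 (7 genes), S (5 genes) and G2/M (8 genes). Points are genes, red bars are medians (0.01, -0.55 and -0.20) and dashed lines mark 1.4-fold. All S and G2/M members lie below 0, and the G1 members lie on both sides of it.

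Promoters were examined for letters that the choice of members had not used. E2F factors bind GC-rich octamers, and the cell cycle homology region (CHR), often found downstream of CCAAT boxes, is known from promoters of genes active in G2 and mitosis. RefSeq promoter windows (GRCh38.p14) were matched by gene ID and held 76 of the 84 members. Each window runs from 250 bases before to 50 bases after a start, and for the 27 members with several windows the most downstream was taken. The letters searched on both strands were TTTCCCGC, TTTGGCGC, TTTCGCGC and TTTGCCGC for E2F, TTTGAA for the CHR and CCAAT. In the member windows 2 overlaps between matches were found, each of CCAAT with its own reverse strand. Stretches of 5 lower S and G2/M members past 1.4-fold are printed below, with *CCNB2* for its CHR and *CDK19* as the higher member. They run from 150 bases before to 30 bases after the start, with matches in capitals.
CDK1, chr10:60778328-60778507, + strand: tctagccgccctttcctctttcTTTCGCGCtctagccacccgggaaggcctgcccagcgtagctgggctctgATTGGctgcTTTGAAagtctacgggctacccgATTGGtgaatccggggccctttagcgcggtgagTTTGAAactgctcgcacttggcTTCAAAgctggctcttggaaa
CCNF, chr16:2429297-2429476, + strand: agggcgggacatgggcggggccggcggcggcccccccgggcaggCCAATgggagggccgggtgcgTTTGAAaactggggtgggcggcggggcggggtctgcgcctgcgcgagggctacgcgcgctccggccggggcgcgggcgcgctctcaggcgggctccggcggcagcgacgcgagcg
CCNB2, chr15:59104996-59105175, + strand: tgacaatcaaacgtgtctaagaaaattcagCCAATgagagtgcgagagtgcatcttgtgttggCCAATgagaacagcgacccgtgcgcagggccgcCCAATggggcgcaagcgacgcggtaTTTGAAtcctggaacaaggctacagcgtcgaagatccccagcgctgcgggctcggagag
CCNA2, chr4:121823854-121824033, - strand: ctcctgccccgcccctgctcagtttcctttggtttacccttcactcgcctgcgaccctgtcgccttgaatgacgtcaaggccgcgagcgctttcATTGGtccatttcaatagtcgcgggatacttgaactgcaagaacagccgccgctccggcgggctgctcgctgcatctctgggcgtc
CDC6, chr17:40287729-40287908, + strand: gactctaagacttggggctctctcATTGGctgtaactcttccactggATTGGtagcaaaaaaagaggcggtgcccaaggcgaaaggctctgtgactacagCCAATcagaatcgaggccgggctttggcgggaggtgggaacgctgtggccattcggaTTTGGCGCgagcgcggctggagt
CDC7, chr1:91500962-91501141, + strand: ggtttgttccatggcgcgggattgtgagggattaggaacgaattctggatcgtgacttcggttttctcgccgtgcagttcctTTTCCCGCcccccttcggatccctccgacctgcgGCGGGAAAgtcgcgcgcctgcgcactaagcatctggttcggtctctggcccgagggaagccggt
CDK19, chr6:110815440-110815619, - strand: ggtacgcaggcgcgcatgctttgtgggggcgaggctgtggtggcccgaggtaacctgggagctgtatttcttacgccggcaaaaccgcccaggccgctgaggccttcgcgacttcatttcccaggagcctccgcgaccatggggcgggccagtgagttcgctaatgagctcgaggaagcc

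Because the CHR is known from promoters of genes like those on the G2/M list, a high share there was likely in advance. The CHR letters and CCAAT stood together in 5 of the 8 G2/M windows (62.5%), against 6.24% of all 27305 promoters. These were the windows of *CDK1*, *CCNF*, *CDC25C*, *CCNB2* and *CDC20*. Their differences ran from -0.61 for *CCNF* and *CDK1* to -0.05 for *CDC20*, and those of the G2/M members without the CHR letters from -0.36 for *CCNB1* to -0.02 for *CCNB3*, so that both groups spanned small and larger differences. In *CDK1* the CHR letters begin at positions -69 and -13 from the start, and at position 10 on the other strand. In *CCNB2* they begin at -29 and in *CDC25C* at -30. The E2F octamers were found in 2 of the 4 S phase windows, those of *CDC6* and *CDC7*, and in 3.21% of all promoters. *CDC7* has a pair of them on opposite strands, beginning at -68 and -34. Of the 6 members lower past 1.4-fold, 4 had an E2F octamer (*CDK1*, *CDC6*, *CDC7* and *CDC23*) and 5 had CCAAT, a sequence that 35.4% of all promoters hold. The octamer was found in 9 of the 76 members searched (11.8%). The others with it were short of 1.4-fold: *CDC16* (-0.24), *CDC37* (-0.09), *CDKN2B-AS1* (-0.04), *CDK10* (-0.02) and *CDC20B* (0). None of the 4 G1 windows and none of the 14 transcriptional windows held an E2F octamer or the CHR letters (0 windows). Of all promoters, 3.21% held the octamer and 15.8% the CHR letters. So few windows cannot tell 0 from these shares. *CCND1*, *CCND2* and *CCNE2* of G1 and *CDK2* of S had no window and were not searched. When every window of a gene was counted, 1 transcriptional member (7.14%) had an E2F octamer and 2 (14.3%) had the CHR letters. The shares of all promoters were then 3.99% and 18.2%. *CDK19* was the member with the octamer. A match is a description of the sequence, and binding was not measured.

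**Figure D5:**
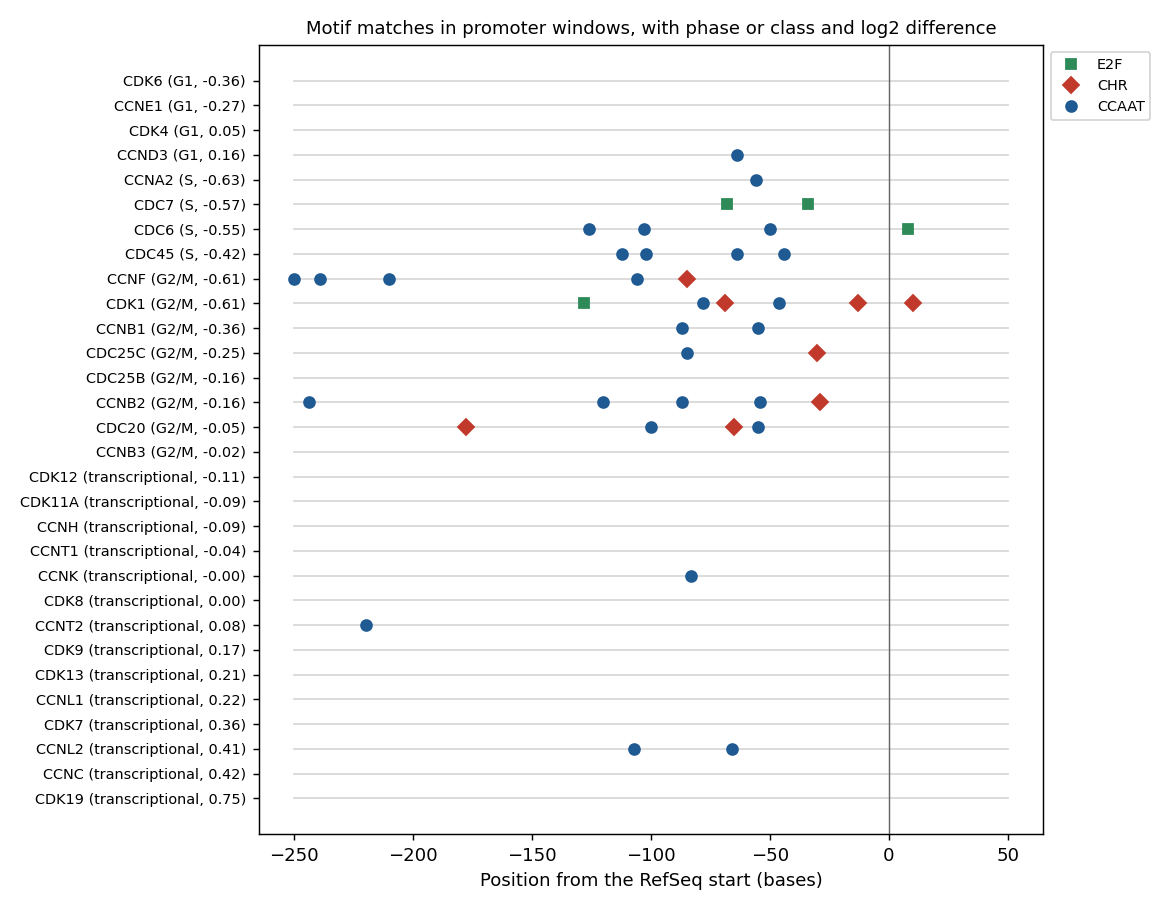
Position of matches to E2F octamers (green squares), the CHR hexamer (red diamonds) and CCAAT (blue circles) relative to the RefSeq start (x axis, bases) in 1 window per gene. Genes (y axis) are ordered by phase and then as transcriptional members, with their log2 difference. CHR matches lie in 5 of the 8 G2/M windows.

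The anaphase-promoting complex is the ubiquitin ligase that ends mitosis, and 4 of its subunits carry CDC names. All 4 were lower. *CDC23* was at -0.28 in siREG4 and 0.28 in siControl, 1.48-fold lower (-0.57), followed by *CDC16* (-0.24), *CDC26* (-0.09) and *CDC27* (-0.03). Of 11 further measured subunits and ubiquitin-conjugating partners of the complex, 8 were lower and 3 higher, with a median of -0.06 and 0 past 1.4-fold. The lowest were *ANAPC5* (-0.34) and *ANAPC7* (-0.30), and the highest *ANAPC13* (0.14) and *ANAPC2* (0.38). *CDC23* was thus the only measured gene of the complex past 1.4-fold. *CDC14A* (-0.05) and *CDC14B* (-0.08), phosphatases related to a yeast enzyme of mitotic exit, lay near 0. The probe sets of *CDC14B* read -0.15 and -0.02.

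Of the 8 listed CDK inhibitors, 2 were measured. *CDKN3*, a phosphatase that acts on CDKs, was at -0.20 in siREG4 and 0.20 in siControl, a difference of -0.40. *CDKN2A*, which encodes the CDK4 and CDK6 inhibitor p16 and the p53 regulator ARF, was at 0.12. Its antisense neighbour *CDKN2A-AS1* was at -0.02 and *CDKN2B-AS1* at -0.04. *CDKN1A*, *CDKN1B* and the other listed inhibitors were not analysed here.

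Other members carry a cell cycle name but are known for other work. The 7 measured CDC genes of other functions had a median of 0.0 and 0 past 1.4-fold. *CDC123*, an assembly factor of the translation factor eIF2, was the lowest (-0.45) and the member closest to the threshold from inside it, followed by *CDC37L1* (-0.23), a relative of the kinase chaperone *CDC37* (-0.09). The splicing genes *CDC40* (0.10) and *CDC5L* (0.14) and the ubiquitin-conjugating enzyme gene *CDC34* (0.27) were the highest. The 9 other cyclins had a median of 0.03. *CCNG1* (-0.28), which encodes cyclin G1, a p53 target, and *CCNO* (-0.08) were the lowest, and *CCNG2* (0.25), known as a cyclin of arrested cells, and *CCNJ* (0.34) the highest. The related cyclins G1 and G2 lay on opposite sides of 0. The 8 other CDKs had a median of -0.02, from *CDK18* (-0.21) and *CDK16* (-0.10) to *CDK14* and *CDK15* (each at 0.01), and *CDK5*, the neuronal kinase, was at -0.00. The 4 CDK-like kinases ran from *CDKL1* (-0.02) and *CDKL4* to *CDKL2* (0.01) and *CDKL3* (0.03). The 9 genes named for binding or regulating a CDK or cyclin ran from *CDKN2AIPNL* (-0.19) and *CCNDBP1* (-0.19) to *CDK2AP1* and *CDK5RAP3* (each at 0.09). *CCNT2-AS1*, the antisense neighbour of *CCNT2*, was at 0.06, and the cyclin Y pseudogenes *CCNYL4* and *CCNYL6* were at -0.03 and 0.11. Near-identical cyclin Y copies can share probe signal.

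Genes that work with or alongside the CDKs without carrying their names were taken from fixed lists. The first list held 11 cofactors, kinases and ligases of CDK complexes and further regulators of the cycle. Of these, 7 were measured and all were lower, against 48.7% of all named genes. Their median was -0.35. *CKS1B*, a small CDK-binding subunit, was 1.49-fold lower (-0.57) and its paralog *CKS2* was at -0.35. *TRIP13*, a mitotic checkpoint ATPase, was at -0.42 and *WEE1*, the kinase that restrains CDK1, at -0.40. *CUL1* (-0.07) and *FZR1* (-0.04) were the highest. Of the 13 listed genes of the retinoblastoma family and of licensing, 6 were measured and 5 of these were lower, with a median of -0.28. *CDT1*, the licensing factor that works with CDC6, was 1.47-fold lower (-0.56), *RBL2* was at -0.45 and *RB1* at -0.32. *DBF4*, the activator of CDC7, was at 0.03, in contrast to *CDC7* at -0.57, and *DBF4B* was at -0.16.

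Of the 13 listed partners of transcriptional CDKs, 7 were measured. Of these 7, 6 were higher, with a median of 0.07 and 0 past 1.4-fold. Of all 14812 named genes, 7104 were higher. Only *MED12* lay above the range of the keratin-associated genes. *MED12* (0.37) and *MED13* (0.20), which hold cyclin C and its kinase on Mediator, were the highest, and *HEXIM2* (-0.02) and *MED12L* (0.01) the lowest. With *CCNC*, *CDK8* and *CDK19*, all 7 measured genes of the Mediator kinase module were above 0, from 0.00 for *CDK8* to 0.75 for *CDK19*, with a median of 0.20. This module was put together after its values were seen, and 3 of the 7 (*CDK8*, *MED12L* and *MED13L*) lay within the SD of the keratin-associated genes.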

How the data were processed

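Total RNA from HT29 cells was run on 1 array per group (siControl and siREG4). Per the methods of the study, the arrays were evaluated with GeneSpring, and genes lower by over 1.4 fold were selected; here that threshold was applied in both directions. The authors deposited log values, taken here as log2, for 44629 probe sets, centred per probe set: the columns sum to 0 within 1e-06 in all 44629, and 1838 are 0 in both. The log base is not stated. For summarization, background correction and normalization between arrays, no method was given in the sources used here. A platform annotation named 15835 probe sets with 1 symbol each, 0 with several, and left 28794 unnamed. Probe sets of a gene were averaged, which touched 3 members (*CCND2*, *CDC27* and *CDC14B*). Precision is limited by the number of arrays.

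The members, gene lists and classes were chosen with earlier results of these data known. Named genes were all members past 1.4-fold, all members of the cell cycle, transcriptional, inhibitor, replication, mitotic and anaphase-promoting complex lists, and the 2 lowest and highest of other lists. *CDK5*, *CDC37*, *CDC40*, *CDC20B*, *RB1*, *WEE1*, *CKS2*, *MED13L*, *GATA6* and the epithelial markers were added after their values were seen. Lists were described by counts and medians. The planned comparison of CDK protein sequences was not made. The summary step was tested on simulated data. Alternatives were quantile normalization, median centring, the first probe set, leaving out probe sets at 0, means, a 2-fold threshold, single probe sets, protein-coding genes only and other class boundaries. The work was done in Python 3.11.15 with matplotlib 3.10.9, scipy 1.17.1, pandas 2.3.3 and numpy 2.4.6.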

Additional observations from a re-analysis of the deposited data

How the results depend on the processing

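A 2-fold threshold left 0 members lower and 0 higher in place of 6 and 1, which follows from the stricter threshold, since the largest member difference was 1.68-fold. The difference between the G1 median and that of the S and G2/M members was 0.37, and 0.24 when means were used, because *CCNE1*, *CCNE2* and *CDK6* pull the G1 mean down to -0.10. With *CCNE1* and *CCNE2* in S, with *CDK2* in G1, or with cyclins and CDKs only, it lay between 0.37 and 0.38. Counting *CDC6* in G1 was not tried, and this range does not cover it. At -0.55, *CDC6* would be the lowest G1 member and past 1.4-fold. The G1 median would fall between *CCNE1* (-0.27) and *CCND1* (0.01), and the difference would be smaller. The difference of the cell cycle and transcriptional medians (-0.34) was -0.30 with cyclins only, -0.37 with CDKs only, -0.39 with means and -0.26 with *CDK10* and *CDK20* added to the transcriptional members. *CCNQ*, listed with them, was not analysed here. Of 443 recomputed values, 440 moved by less than the SD of the keratin-associated genes or, for counts, by less than 1.5 times, and none (0) changed sign among members past 1.4-fold. Under quantile normalization no member moved by more than 0.034. The deposited values were already centred and hold no signal levels, so this could not test the normalization that came before. Median centring could move nothing, as both column medians were 0. Taking the first probe set could move only the 3 members with several probe sets. Leaving out probe sets at 0 could move no member that stayed in. Many of the 443 values were thus fixed in advance, and the count of 440 says little about how firm the results are. Against protein-coding genes only, the share of genes past 1.4-fold was 2.04% lower and 1.68% higher. No paired analysis was possible because each group holds 1 array, and for the same reason no array could be left out.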
